A study of Mus musculus with 4 samples.

Results

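The genes described here encode the chains of the integrins and the laminins. They were chosen by symbol, as the protein coding genes named *Itga*, *Itgb*, *Lama*, *Lamb* or *Lamc* followed by a chain number or letter, which gave 37 of the 37620 genes in the count table: 18 integrin alpha chains, 8 integrin beta chains, 5 laminin alpha chains, 3 laminin beta chains and 3 laminin gamma chains. RNA-seq was made from 4 libraries of mouse embryonic stem cells (mESCs), 2 labelled WT and 2 labelled MUT. Both lines derive from mESCs whose endogenous CTCF carries EGFP and an auxin-inducible degron, and each line also carries an introduced CTCF gene. WT_CTCF cells carry the unchanged protein, and MUT_CTCF cells carry the T668A form, which lacks an O-GlcNAc site. For the study's functional experiments, both lines were kept in 0.5 mM auxin for 48 h to remove the endogenous protein. The auxin time is not repeated for the RNA-seq. Clones were picked for a level of introduced CTCF near the endogenous one, and further clones were used in the study's work on CTCF binding. How many gave the RNA-seq libraries is not given in the sources used here, and the study describes the 2 libraries of a line as biological replicates. The effect of the mutation and any other difference between the clones of the lines cannot be told apart here.

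Integrins are receptors that span the cell membrane. Each is 1 alpha chain paired with 1 beta chain, and the pair decides which matrix protein or cell surface protein is bound, while the tails of the chains connect to the actin or keratin cytoskeleton. Laminins are cross-shaped trimers of 1 alpha, 1 beta and 1 gamma chain that form the sheet of the basement membrane, and in the early mouse embryo the laminin sheet under the primitive endoderm is among the first matrices laid down. Mouse ES cells attach through these receptors to laminin and fibronectin that they secrete themselves, and serum also supplies fibronectin.

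Of the 29 chains tested, 1 was called higher at an adjusted p under 0.05, where 1.56% of all tested genes were. *Itga6*, the alpha chain of the laminin receptors α6β1 and α6β4, rose 1.19-fold in MUT_CTCF mESCs (log2 fold change 0.25 ± 0.056, SE; adjusted p = 0.00541, edgeR quasi-likelihood test, n = 2 libraries per line). No chain fell. By the study's own criterion, over 2-fold and below 0.05 before adjustment, no chain was called, where 0.947% of all tested genes were called higher and 0.357% lower. At an unadjusted p under 0.05, *Itgb1*, *Itgb7*, *Itga10* and *Lamb1* were also higher and 1 chain was lower, beside 7.61% of all tested genes higher and 7.65% lower, and none of these chains passed after adjustment. The chains that made up most of each class by exon length (*Itga5*, *Itgb5*, *Itgb1*, *Lama5*, *Lama1*, *Lamb2* and *Lamc1*) differed between the lines by at most 1.07-fold.

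The regions directly before the start sites of 4 of the 5 chains that were higher at an unadjusted p under 0.05 are printed here, because these are the sequences nearest to the measured transcripts in which patterns for CTCF and for common promoter elements can be looked for. Each is the 250 bases upstream of the RefSeq start in the GRCm38.p6 build, written 5′ to 3′ on the gene's strand. Capitals mark GC boxes (GGGCGG, on either strand) and, in *Itga10*, a loose form of the core of the CTCF motif. For *Itga6*, the only chain called after adjustment, no window was at hand, so none is printed.
Lamb1, chr12:31265043-31265292, plus strand: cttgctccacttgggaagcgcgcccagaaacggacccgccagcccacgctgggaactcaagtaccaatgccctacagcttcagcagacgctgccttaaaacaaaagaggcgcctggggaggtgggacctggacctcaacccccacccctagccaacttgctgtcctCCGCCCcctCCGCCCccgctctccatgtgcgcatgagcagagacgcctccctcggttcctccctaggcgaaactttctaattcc
Itga10, chr3:96645334-96645583, plus strand: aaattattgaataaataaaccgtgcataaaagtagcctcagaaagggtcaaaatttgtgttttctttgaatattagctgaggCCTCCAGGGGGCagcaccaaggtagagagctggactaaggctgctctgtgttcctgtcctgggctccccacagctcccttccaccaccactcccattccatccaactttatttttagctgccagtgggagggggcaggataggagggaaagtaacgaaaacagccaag
Itgb1, chr8:128685404-128685653, plus strand: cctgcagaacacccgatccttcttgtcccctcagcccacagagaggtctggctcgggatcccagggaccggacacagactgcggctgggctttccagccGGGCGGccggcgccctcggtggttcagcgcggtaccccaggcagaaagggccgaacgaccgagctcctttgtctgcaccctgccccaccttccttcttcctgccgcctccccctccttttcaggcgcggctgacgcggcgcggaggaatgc
Itgb7, chr15:102231936-102232185, minus strand: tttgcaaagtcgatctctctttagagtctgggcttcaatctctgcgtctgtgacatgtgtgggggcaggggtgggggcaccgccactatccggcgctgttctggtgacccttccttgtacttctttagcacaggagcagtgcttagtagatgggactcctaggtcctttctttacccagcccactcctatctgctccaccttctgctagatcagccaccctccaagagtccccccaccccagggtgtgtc

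The 4 windows differ in base composition, with a GC content of 68% for *Itgb1*, 62% for *Lamb1*, 56% for *Itgb7* and 48% for *Itga10*, beside a median of 52.4% over all 32817 RefSeq windows of this length. A RefSeq window was at hand for 23 of the 37 chains, with 26 windows in all because some genes have several starts. Each pattern was searched on both strands. The core of the CTCF motif, written as CCA, any 2 bases, AG, any 2 bases and GGC, was in 2.07% of all windows and in none of the 26. With any base in place of the first A, a form chosen after the sequences were seen and which includes every match of the stricter one, it was in 7.16% of all windows and in 2 of the 26, those of *Itga10* and *Itga8*. A GC box, the binding element of the Sp1 family, was in 9 of the 26 and in 32.7% of all windows. The TATA box TATAAA was in none of the 26 and in 12.4% of all windows, and CCAAT was in 4 of the 26, 1 of them *Lamb1*, and in 33.8% of all windows. A match describes letters in the window and not a bound site, and the windows are given in a later build than the counts.

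The libraries were of even depth, with totals of 40524694 to 40977464 counts, and 16264 genes passed a filter on low counts. *Ctcf* RNA, endogenous and introduced together, was 18485 ± 259 normalised counts (SD, n = 2) in WT_CTCF and 19058 ± 378 in MUT_CTCF, with a log2 fold change of 0.044 (adjusted p = 0.499). The base change itself cannot be read from gene counts. Pluripotency genes listed as markers were abundant in every library, with a summed level of 251520 to 253915 normalised counts in WT_CTCF and 250732 to 250859 in MUT_CTCF, where *Sox2* rose (log2 fold change 0.095, adjusted p = 0.0358) and *Dppa5a* fell (log2 fold change -0.099, adjusted p = 0.0157). In bulk RNA, fewer cells of a type and less RNA per cell cannot be told apart. Over all tested genes, edgeR called 253 higher and 262 lower in MUT_CTCF at an adjusted p under 0.05, and with scaling by library size alone the split was 260 higher and 152 lower.

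Of the 37 chains, 29 passed the filter and were tested: 13 integrin alpha, 6 integrin beta, 4 laminin alpha, 3 laminin beta and 3 laminin gamma chains. One of the 29 was called higher, where 1.56% of all tested genes were, and 0 were called lower, where 1.61% were. At an unadjusted p under 0.05, *Itga6* included, 5 of the 29 were higher and 1 was lower. The lines did not overlap for 12 chains, 9 with MUT_CTCF on top and 3 with MUT_CTCF below, and among all tested genes each of these held for 22.3%. The fitted log2 fold change was above 0 for 22 of the 29 chains, or 75.9%, against 50.8% of all tested genes. The sizes were ordinary: the median absolute log2 fold change was 0.104 over the 29 chains and 0.106 over all tested genes, and the signed medians were 0.039 and 0.0034. By class the median log2 fold change was 0.044 for integrin alpha, 0.17 for integrin beta, -0.047 for laminin alpha and 0.039 for laminin beta chains. Fold changes of single chains ran from -0.89 to 0.99 on the log2 scale, both ends belonging to genes with under 100 counts per library.

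**Figure D1:**
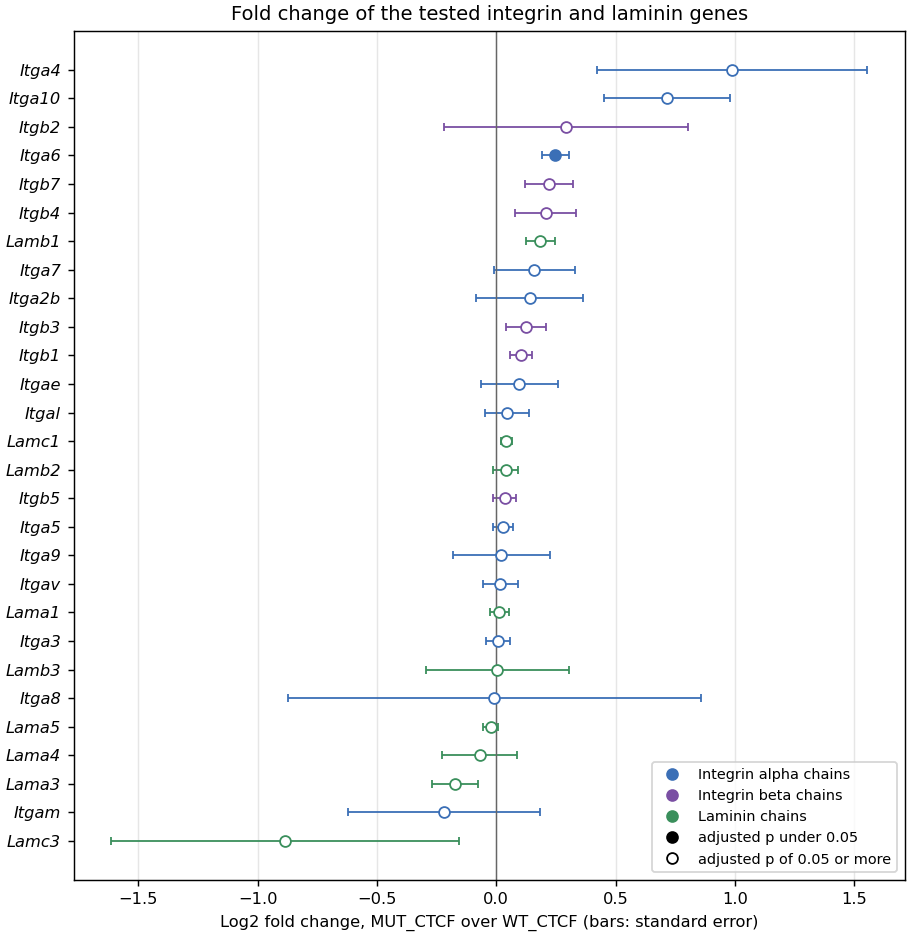
Fitted log2 fold change of MUT_CTCF over WT_CTCF mESCs for 28 of the 29 tested integrin and laminin chains, with the standard error as bars and the filled point marking an adjusted p under 0.05. *Itga6* is the filled point at 0.25, 22 lie above 0, and the widest bars belong to *Itga8*, *Lamc3*, *Itga4* and *Itgb2*, which have few counts.

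Among the integrin alpha chains, *Itga6* (mm9 chr2:71583673-71696473, plus strand) was counted 2285 and 2416 times in the WT_CTCF libraries and 2794 and 2806 times in the MUT_CTCF libraries. The lines did not overlap, and the smallest step between a WT_CTCF and a MUT_CTCF library was larger than the step within either line. After normalisation a MUT_CTCF library was 1.14 to 1.23 times a WT_CTCF library, while the 2 WT_CTCF libraries differed 1.06-fold and the 2 MUT_CTCF libraries 1.02-fold. As RPKM, counts per kilobase of exon scaled to the library, the level was 6.40 ± 0.256 in WT_CTCF and 7.59 ± 0.0952 in MUT_CTCF. As a share of all integrin alpha chain RNA on that scale, *Itga6* went from 9.64% ± 0.0495 to 11% ± 0.113. Leaving out 1 library at a time kept the log2 fold change between 0.21 and 0.29, but the adjusted p ran from 0.0139 to 0.477, and it was under 0.05 only without WT_CTCF replicate 2. Without either MUT_CTCF library, edgeR called no gene of the whole table.

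The other laminin-binding alpha chains did not pass the test. *Itga3*, whose partner is β1 and whose main ligands contain laminin α3 or α5, was counted 3334 and 3437 times in WT_CTCF and 3429 and 3400 times in MUT_CTCF. Its log2 fold change was 0.0067 ± 0.050 (adjusted p = 0.972), with a 95% interval of -0.091 to 0.104. *Itga7*, the laminin receptor chain known from muscle, had counts of 245 and 200 against 229 and 270, which overlap, and a log2 fold change of 0.16 ± 0.169 (adjusted p = 0.735). The 95% interval of *Itga7* was -0.17 to 0.49, wider than that of *Itga3*. *Itga1* and *Itga2*, chains of collagen and laminin receptors, had few counts, with 2, 4, 5 and 0 counts for *Itga1* and 0, 0, 2 and 0 for *Itga2* (WT_CTCF first, as in all such lists here).

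The alpha chains that bind the RGD motif of fibronectin and vitronectin were *Itga5*, *Itgav*, *Itga8* and *Itga2b*. *Itga5*, the fibronectin receptor chain, had the highest level of all alpha chains, with 5858 and 6316 counts in WT_CTCF and 6106 and 6357 in MUT_CTCF. These ranges overlap, and the log2 fold change was 0.028 ± 0.041 (adjusted p = 0.827). *Itgav*, which pairs with β1, β3, β5, β6 or β8, had 1323 and 1462 against 1408 and 1419 counts, with both MUT_CTCF libraries inside the WT_CTCF range (log2 fold change 0.016 ± 0.074, adjusted p = 0.955). *Itga2b*, the platelet fibrinogen receptor chain, had 181 and 102 against 144 and 169 counts, so that its WT_CTCF libraries differed 1.77-fold and spanned both MUT_CTCF libraries (log2 fold change 0.14 ± 0.225, adjusted p = 0.847). *Itga8*, a chain known from the developing kidney, had 5, 12, 12 and 5 counts and a log2 fold change of -0.0078 ± 0.867 (adjusted p = 0.998). It turned to 0.0046 with scaling by library size alone.

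*Itga10*, a collagen receptor chain known from cartilage, had the second highest fitted log2 fold change of the chains. It was counted 79 and 73 times in WT_CTCF and 140 and 111 times in MUT_CTCF, and the lines did not overlap. The log2 fold change was 0.72 ± 0.264, or 1.64-fold, with a 95% interval of 0.20 to 1.23 and an adjusted p of 0.139. Some exon bases of the gene (mm9 chr3:96449507-96468442) are shared with other annotation on its strand, so its value is uncertain. *Itga11*, the other collagen receptor chain of this kind, had 13, 7, 3 and 4 counts and was not tested.

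The alpha chains best known from white blood cells were *Itgal*, *Itgae*, *Itgam*, *Itgad*, *Itgax*, *Itga4* and *Itga9*, the last of these also found widely outside blood. *Itgal*, the αL chain of LFA-1, had 804 and 995 counts in WT_CTCF and 941 and 921 in MUT_CTCF, with both MUT_CTCF libraries inside the WT_CTCF range (log2 fold change 0.044 ± 0.092, adjusted p = 0.891). *Itgae*, the E-cadherin receptor chain of epithelial T cells, had 311 and 217 against 306 and 261 counts (log2 fold change 0.097 ± 0.162, adjusted p = 0.855), which also lie inside the WT_CTCF range. *Itga9*, which binds tenascin and osteopontin, had 176 and 145 against 148 and 179 counts (log2 fold change 0.022 ± 0.204, adjusted p = 0.977). None of the 3 separated the lines.

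*Itga4*, which binds VCAM-1 and fibronectin, had the largest fitted difference, but its WT_CTCF libraries stood 4.71-fold apart. It was counted 33 and 7 times in WT_CTCF and 50 and 30 times in MUT_CTCF, and the log2 fold change of 0.99 ± 0.565 (adjusted p = 0.422) ran from 0.27 to 2.49 as single libraries were left out. Its exons share 1124 bases with *Cerkl* on the opposite strand, which had 35, 33, 38 and 51 counts (log2 fold change 0.38, adjusted p = 0.769). *Itgam*, the αM chain of Mac-1, had 43, 58, 38 and 49 counts (log2 fold change -0.22 ± 0.401, adjusted p = 0.870). *Itgad* had 5, 11, 0 and 1 counts and *Itgax* had 1, 0, 0 and 0, and neither was tested. Markers of white blood cells were near 0 with exceptions: *Ptprc*, which encodes the CD45 of all white blood cells, had 4, 0, 0 and 0 counts, and *Lyz2* had 2, 0, 0 and 2, while *Cd68* had 1040 to 1287 and *Cd3e* 221 to 262. The summed level of the 8 markers was 1533 to 1552 normalised counts in WT_CTCF and 1329 to 1490 in MUT_CTCF, and none of them passed the test.

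**Figure D2:**
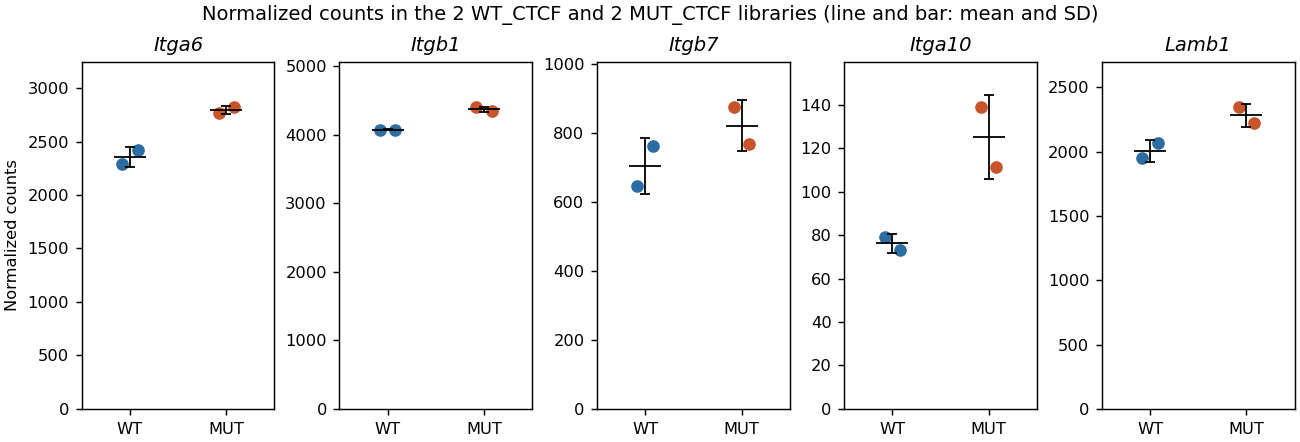
Normalised counts of the 5 chains higher in MUT_CTCF at an unadjusted p under 0.05, 1 point per library, with the mean as a line and the SD as a bar (n = 2 per line). The 5 were chosen by their p in these same libraries. The lines do not overlap, with MUT_CTCF on top, for any of them, as held for 22.3% of all tested genes. The step is widest in proportion for *Itga10*, from 76.1 to 125.2 in the mean.

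All 6 tested integrin beta chains had a fitted log2 fold change above 0, and none passed the test. The values ran from 0.035 for *Itgb5* to 0.29 for *Itgb2*, and the sign of *Itgb2* turned without 1 library (lowest value -0.20). The lines did not overlap, with MUT_CTCF on top, for 5 of the 6, namely *Itgb1*, *Itgb3*, *Itgb4*, *Itgb5* and *Itgb7*, against 22.3% of all tested genes. *Itgb1*, the partner of most alpha chains, *Itga6* included, was counted 4067 and 4052 times in WT_CTCF and 4435 and 4324 times in MUT_CTCF. The WT_CTCF libraries differed 1.00-fold after normalisation, and a MUT_CTCF library was 1.07 to 1.08 times a WT_CTCF library. The log2 fold change was 0.10 ± 0.046 (unadjusted p = 0.0266, adjusted p = 0.254, edgeR), and it stayed between 0.095 and 0.11 when any library was left out.

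*Itgb4*, which pairs with α6 alone and anchors keratin filaments at hemidesmosomes, had 373 and 372 counts in WT_CTCF and 412 and 451 in MUT_CTCF. The log2 fold change was 0.21 ± 0.129, with a 95% interval of -0.045 to 0.46 and an adjusted p of 0.478. Its exons share 537 bases with a long noncoding RNA gene on the opposite strand. On the RPKM scale, *Itgb4* was at 1.3 ± 0.00178 in WT_CTCF and 1.51 ± 0.111 in MUT_CTCF, below *Itga6* at 6.40 and 7.59. Keratinocyte markers were low in every library, with *Krt5* at 10, 6, 8 and 2 counts, *Krt14* at 2, 4, 0 and 0, and a summed level over 4 markers of 25.0 to 34.1 normalised counts in WT_CTCF and 46.6 to 58.3 in MUT_CTCF, where *Trp63* had 10, 24, 36 and 54 counts. The part of these in the integrin values was not tested.

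*Itgb3* and *Itgb5* are the partners of αv in vitronectin receptors, and *Itgb3* is also the partner of the platelet chain. *Itgb3* was counted 955 and 911 times in WT_CTCF and 1019 and 1023 times in MUT_CTCF (log2 fold change 0.12 ± 0.085, adjusted p = 0.540). *Itgb5* was counted 3679 and 3756 times in WT_CTCF and 3813 and 3834 times in MUT_CTCF (log2 fold change 0.035 ± 0.048, adjusted p = 0.812). The libraries of the lines did not overlap for either, although the gap for *Itgb5* was 1.00-fold between the closest pair. The platelet markers *Pf4* (0, 4, 0 and 0 counts) and *Ppbp* (0, 0, 1 and 0 counts) had few counts, and the 5 platelet markers summed to 74.1 to 77.2 normalised counts in WT_CTCF and 76.3 to 84.4 in MUT_CTCF, nearly all of it *Gp1ba*.

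*Itgb7*, which pairs with α4 and αE on lymphocytes, had 646 and 760 counts in WT_CTCF and 881 and 764 in MUT_CTCF. The lines were apart by 4 counts at the closest pair, 760 and 764, and the log2 fold change was 0.22 ± 0.099 (unadjusted p = 0.0309, adjusted p = 0.271, edgeR). *Itgb2*, the partner of the αL, αM, αX and αD chains, had 32, 25, 25 and 45 counts (log2 fold change 0.29 ± 0.512, adjusted p = 0.863). *Itgb6* and *Itgb8*, the other partners of αv, had 0 counts in all 4 libraries, and a count of 0 allows up to 3 counts, or at most 0.0740 CPM (counts scaled to the library), for counting error only.

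As RPKM meaned over the 4 libraries, the alpha chains ran in the order *Itga5* (34.5), *Itga3* (14.6), *Itga6* (6.99), *Itgal* (3.52), *Itgav* (3.20), *Itgae* (1.46), *Itga7* (1.36), *Itga2b* (0.670), *Itga9* (0.517), *Itga10* (0.476) and *Itgam* (0.181). The ranges of *Itgal* and *Itgav* overlap, as do those of *Itgae* and *Itga7*, and those of *Itga2b*, *Itga9* and *Itga10* run into each other. The beta chains ran *Itgb5* (27.5), *Itgb1* (25.3), *Itgb7* (6.81), *Itgb3* (4.10), *Itgb4* (1.41) and *Itgb2* (0.255), with no overlap between neighbours. *Itga5* alone made 51.5% ± 0.975 of the alpha chain total in WT_CTCF and 50.5% ± 0.768 in MUT_CTCF, and *Itgb5* with *Itgb1* made most of the beta chain total. The summed alpha and beta levels were nearly equal, at a ratio of 1.00 to 1.06 over the 4 libraries. These levels depend on the length used: with the longest coding transcript in place of all exons, *Itga3* stood 1.18 times over *Itga6* in place of 2.10 times, and *Itga6* 3.42 times over *Itgal* in place of 1.99 times.

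**Figure D3:**
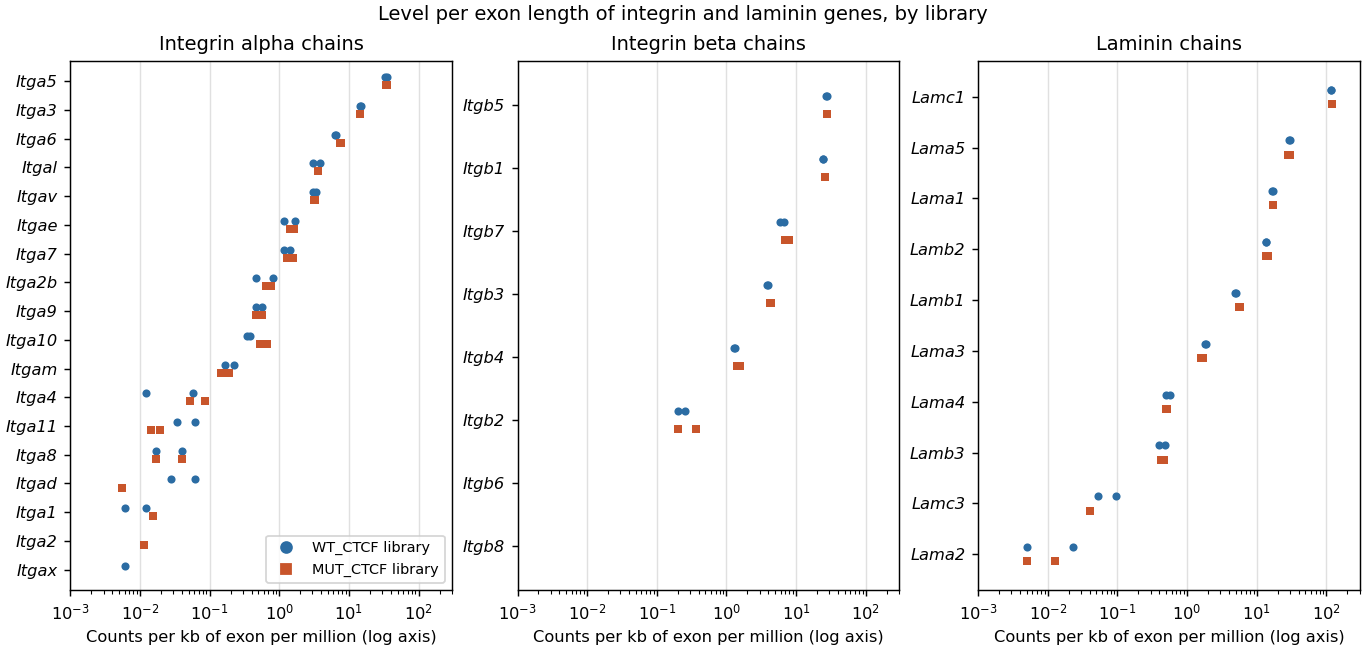
Level of 36 of the 37 chains in each library, in RPKM on a log axis (counts per kilobase of exon, scaled to the library), ordered within class by the mean over 4 libraries. Libraries with 0 counts are not drawn, so *Itgb6* and *Itgb8* are empty, and *Lamc1* stands highest at 119.6.

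Among the laminin alpha chains, 1 of 4 tested genes had a fitted log2 fold change above 0 and none passed the test. *Lama5*, the chain of the main laminin ligands of α6β1 and α3β1, was counted 13588 and 13793 times in WT_CTCF and 13211 and 13839 times in MUT_CTCF. The MUT_CTCF libraries spanned those of WT_CTCF, and the log2 fold change was -0.023 ± 0.032 (adjusted p = 0.814). *Lama1*, the chain of the laminin first made in the embryo, had 6425 and 6666 against 6690 and 6574 counts, which overlap (log2 fold change 0.013 ± 0.039, adjusted p = 0.926). The 95% interval of *Lama5* was -0.085 to 0.039 and that of *Lama1* was -0.063 to 0.089.

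*Lama3*, the alpha chain of the epithelial laminin of hemidesmosomes, was lower in both MUT_CTCF libraries, with 778 and 810 counts in WT_CTCF and 727 and 687 in MUT_CTCF. The log2 fold change was -0.17 ± 0.096, with a 95% interval of -0.36 to 0.016 and an adjusted p of 0.404. *Lama4*, known from blood vessels and muscle, had 277 and 247 against 246 and 255 counts (log2 fold change -0.070 ± 0.159, adjusted p = 0.90). *Lama2*, the muscle laminin chain, had 9, 2, 2 and 5 counts and was not tested.

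*Lamb1*, the beta chain of the early embryonic laminins, had the second smallest p-value of all the chains. It was counted 1945 and 2064 times in WT_CTCF and 2365 and 2209 times in MUT_CTCF, and the lines did not overlap. The log2 fold change was 0.18 ± 0.061, or 1.14-fold, with a 95% interval of 0.064 to 0.30 (unadjusted p = 0.00399, adjusted p = 0.0899, edgeR). Over the alternatives the adjusted p ran from 0.0532 to 0.551, so it passed under none of them. Its share of the laminin beta total per exon length was 26.1% ± 0.642 in WT_CTCF and 28.1% ± 1.58 in MUT_CTCF. Of the printed windows its own, before the start of the gene at mm9 chr12:31950099-32014509, is the only one with a pair of GC boxes.

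*Lamb2*, a beta chain of kidney and synaptic laminins, had 3114 and 3133 counts in WT_CTCF and 3145 and 3298 in MUT_CTCF, which after normalisation overlap (log2 fold change 0.039 ± 0.052, adjusted p = 0.805). *Lamb3*, the beta chain of the epithelial laminin, had 70, 86, 83 and 74 counts (log2 fold change 0.0032 ± 0.30, adjusted p = 0.998). *Lamb2* stood 2.62 ± 0.200 times over *Lamb1* (SD over 4 libraries) in counts per kilobase of exon, and 1.53 times with the longest coding transcript as the length.

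*Lamc1*, the gamma chain of nearly all laminins, had the highest level of the 37 genes. It was counted 39687 and 39668 times in WT_CTCF and 40993 and 41036 times in MUT_CTCF, and the lines did not overlap. The difference was small, with a log2 fold change of 0.042 ± 0.023, a 95% interval of -0.0038 to 0.088 and an adjusted p of 0.404. *Lamc3* had 13, 24, 10 and 10 counts (log2 fold change -0.89 ± 0.728, adjusted p = 0.635), and its exons share 382 bases with a transcript on the opposite strand.

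On the RPKM scale, the chains of the early embryonic laminins were at 17.0 for *Lama1*, 29.3 for *Lama5*, 5.30 for *Lamb1* and 119.6 for *Lamc1* in the mean over 4 libraries.

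The laminin chains were at unequal RNA levels within each class and between classes. *Lamc1* stood 4.09 ± 0.135 times over *Lama5* (SD over 4 libraries) on the RPKM scale, and 4.43 times with the longest coding transcript as the length. The summed alpha chains were 2.39 to 2.56 times the summed beta chains over the 4 libraries. *Lama5* made 60.5% ± 0.288 of the alpha total in WT_CTCF and 60.2% ± 1.11 in MUT_CTCF, and *Lamb2* made 71.6% ± 0.936 and 69.7% ± 1.78 of the beta total. *Lama3* was at 1.75, *Lama4* at 0.521 and *Lamb3* at 0.439, without overlap between neighbours.

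Laminins are also abundant products of primitive and parietal endoderm, cells that can appear in ES cell cultures. The 12 markers of these cells summed to 921 to 942 normalised counts in WT_CTCF and 962 to 1208 in MUT_CTCF, and none passed the test. *Gata6* had 57, 50, 99 and 108 counts (adjusted p = 0.0733) and *Sox17* had 57, 46, 66 and 108 (adjusted p = 0.259). Among the other tested endoderm markers, *Gata4* (log2 fold change 0.30), *Pdgfra* (0.37), *Amn* (0.085), *Dab2* (-0.21) and *Cubn* (-0.10) overlapped between the lines. *Gata6* (0.95), *Sox17* (0.75), *Hnf4a* (0.20) and *Afp* (0.14) did not overlap, with MUT_CTCF on top, as held for 22.3% of all tested genes. *Sox7* had 1, 0, 0 and 4 counts, *Foxa2* 5, 7, 2 and 0, and *Ttr* 0, 0, 0 and 1. Markers of trophectoderm, the outer layer of the blastocyst, summed to 706 to 794 in WT_CTCF and 565 to 597 in MUT_CTCF, with *Tpbpa* at 0 throughout. Most of that difference was *Cdx2*, which fell from a mean of 286.6 to 145.8 normalised counts (adjusted p = 0.000227, edgeR). No other marker of this list passed the test. The lines overlapped for *Eomes* (log2 fold change -0.14), *Hand1* (0.12), *Elf5* (-0.12) and *Krt7* (-0.16). For *Cdx2* and *Gata3* (-0.13) both MUT_CTCF libraries lay below both WT_CTCF libraries, as held for 22.3% of all tested genes. The sums for neural cells were 13822 to 13896 and 12127 to 12291, nearly all *Tubb3*, which fell (adjusted p = 5.01e-05). For muscle they were 676 to 720 and 778 to 815, for endothelium 2474 to 2739 and 2817 to 2838 with *Emcn* at 0, and for fibroblasts 1311 to 1337 and 1285 to 1450 with *Lum* at 0. The part of such cells in the values of *Lamb1* or *Itga6* was not tested.

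**Figure D4:**
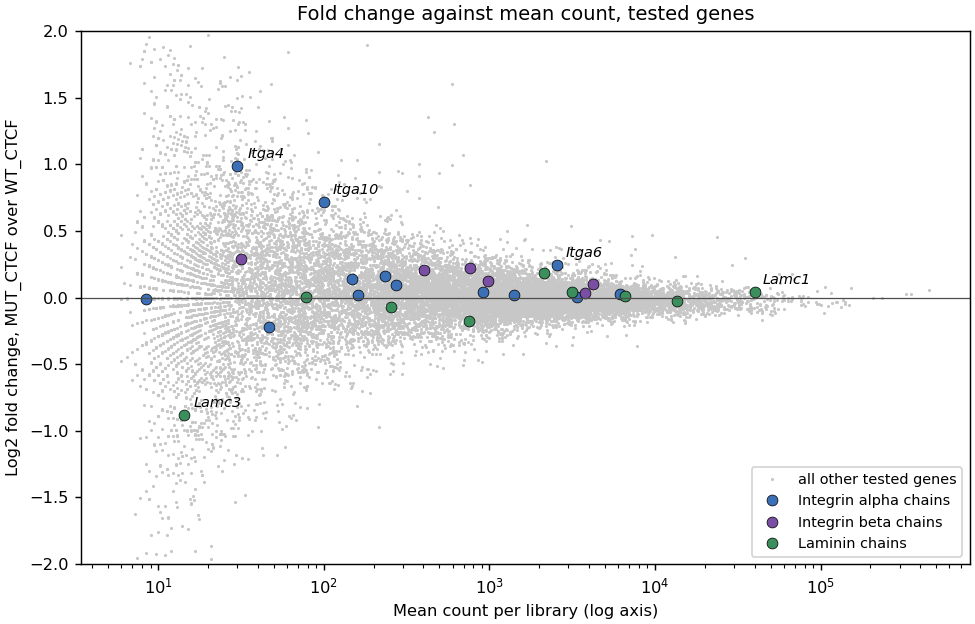
Fitted log2 fold change of MUT_CTCF over WT_CTCF against the mean count per library (log axis) for the 16264 tested genes, with 28 of the 29 tested chains coloured by class; 44 tested genes lie beyond the axis. *Itga4* and *Lamc3*, the chains farthest from 0, lie among genes of low count, where the spread of all genes is wide, and *Lamc1* lies near 0 among the most abundant.

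The 4 lists of genes that work with these chains were read in the same fit, in which 3.17% of all tested genes were called in either direction. Of 33 genes listed as integrin adaptors and activators, some of which connect the receptor tails to actin, 32 were tested. None was called in either direction, and the median log2 fold change was -0.00038. At an unadjusted p under 0.05 (edgeR), where 7.61% of all tested genes were higher and 7.65% lower, 2 of the 32 were higher and 5 lower. Talin 1 (*Tln1*), which binds the beta tail and opens the receptor, was at -0.039 (adjusted p = 0.624), and kindlin-2 (*Fermt2*) at -0.11 (adjusted p = 0.166). *Cd151*, a tetraspanin held to bind α3β1 and α6β1, was at -0.12 (adjusted p = 0.323). The 1 list gene not tested was *Ilk*, integrin-linked kinase, with 4, 4, 3 and 6 normalised counts. Of its exon bases 89.7% overlap exons of other genes on the opposite strand, *Taf10* and *Rrp8*, and whether its reads were lost in counting was not tested. Chains shared far fewer exon bases with an opposite-strand gene, from 1 base for *Itga7* and 66 for *Itgad* to 634 for *Itgav* and 1124 for *Itga4*.

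Of 23 other basement membrane components, 19 were tested and 1 was called. Their median log2 fold change was -0.040. Before adjustment, at p under 0.05 (edgeR), 3 were higher and 4 lower, beside 7.61% and 7.65% of all tested genes. *Col18a1*, the core of a heparan sulphate proteoglycan that also gives rise to endostatin, fell, with 8116 and 8208 counts in WT_CTCF and 7221 and 7630 in MUT_CTCF (log2 fold change -0.14 ± 0.037, adjusted p = 0.0198). *Nid1*, nidogen, which binds the laminin γ1 chain, was at 0.079 (adjusted p = 0.129), *Hspg2*, perlecan, at 0.0059 (adjusted p = 0.960), and *Col4a1*, of collagen IV, at -0.040 (adjusted p = 0.811).

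Of 18 other laminin receptors and genes of the dystroglycan complex, 15 were tested, and 1 was called higher and 1 lower, with a median of -0.021. Before adjustment, at p under 0.05 (edgeR), 2 were higher and 1 lower, beside 7.61% and 7.65% of all tested genes. *Sdc1*, a syndecan that carries heparan sulphate, rose from 2049 and 1954 counts to 2370 and 2338 (log2 fold change 0.23 ± 0.060, adjusted p = 0.0206). *Bcam*, the Lutheran glycoprotein, a receptor of laminin α5, fell from 6496 and 6534 counts to 5710 and 6075 (log2 fold change -0.15 ± 0.041, adjusted p = 0.0249). *Dag1*, dystroglycan, was at 0.081 (adjusted p = 0.182). So of the receptor genes for laminin that passed the test, *Itga6* and *Sdc1* were higher and *Bcam* was lower in MUT_CTCF, and the libraries of *Lama5* overlapped.

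Of 25 other integrin ligands, 19 were tested and 1 was called, with a median of -0.061. Before adjustment, at p under 0.05 (edgeR), 3 were higher and 2 lower, beside 7.61% and 7.65% of all tested genes. *Mfge8*, a secreted RGD protein bound by αv integrins, rose from 13007 and 12317 counts to 13641 and 14264 (log2 fold change 0.13 ± 0.033, adjusted p = 0.00932). *Fn1*, fibronectin, the ligand of α5β1, was at 0.047 (adjusted p = 0.240). For all 4 called list genes the libraries of the lines did not overlap. The calls came from these same values, so this is no separate support. Among all tested genes, 22.3% lay with MUT_CTCF on top and 22.3% with MUT_CTCF below.

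**Figure D5:**
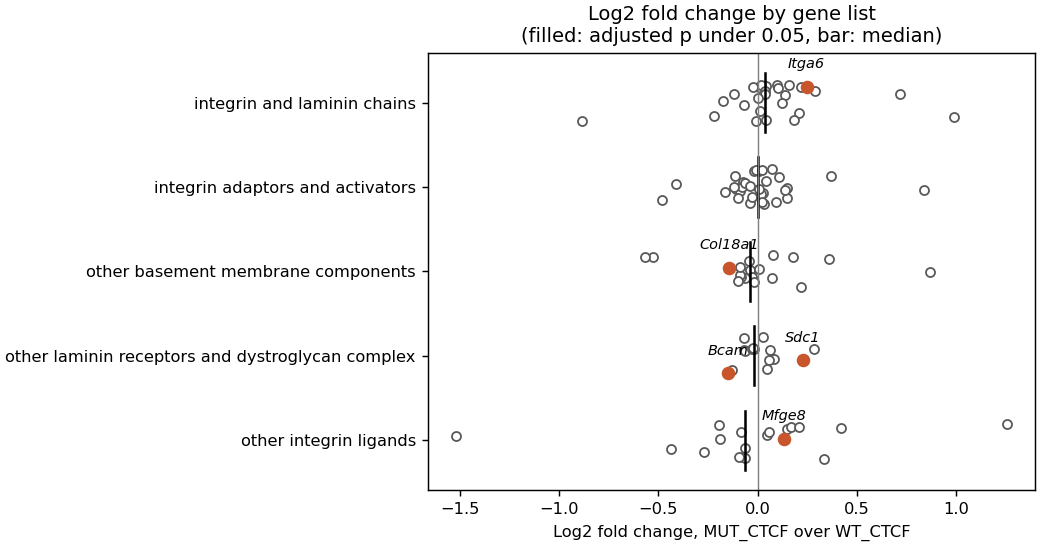
Fitted log2 fold change of MUT_CTCF over WT_CTCF for the tested integrin and laminin chains and for 4 related gene lists, 1 point per gene, with filled points at an adjusted p under 0.05 and a bar at the list's median. The medians lie between -0.061 and 0.039, and 5 genes are filled: *Itga6*, *Sdc1* and *Mfge8* to the right of 0, *Col18a1* and *Bcam* to the left.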

How the data were processed

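RNA-seq of 2 WT_CTCF and 2 MUT_CTCF mESC libraries was analysed from the deposited table of raw counts per gene, in which the authors had counted uniquely mapped reads. Per the paper's methods, reads were aligned to mm9 with STAR and counted with HTSeq-count. The submitters' processing notes name Trim Galore 0.4.4 and HTSeq 0.9.1. The strand setting and annotation release of the counting are not given in the sources used here. The authors' table of their own comparison (log2 fold changes, average log2 CPM, p-values and false discovery rates) was not used.

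Gene names, mm9 places and exon lengths came from GENCODE M1 (NCBIM37), which named 37205 of 37620 identifiers. Genes were kept by filterByExpr (minimum count 10), scaled by TMM (factors 0.994 to 1.01) and tested over 16264 genes with edgeR 4.0.16 in R 4.3.3 (glmQLFit, glmQLFTest, condition alone), with Benjamini-Hochberg adjustment. Normalised counts are scaled to the mean effective library of 40788925. The standard error is the log2 fold change divided by the root of F, and 95% intervals are 1.96 standard errors either side. Levels (RPKM) are counts per kilobase of the union of exons, scaled to the effective library. The scripts were tested on simulated data. A single-gene exact permutation test of 2 against 2 cannot go below p = 0.333 (two-sided), so none was used.

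Counts of the 2 libraries of a line differed by more than sampling noise (chi-square per degree of freedom 3.65 for WT_CTCF and 4.33 for MUT_CTCF), and each counted as 1 replicate. The chains and lists were chosen with earlier results of these data known. Chains with an adjusted p under 0.05, with non-overlapping lines or with at least 100 normalised counts in a line were given by library, the other tested chains and those that failed the filter by their counts, and list genes with an adjusted p under 0.05 by value. Other list and marker genes named were chosen after their values were seen, for their role. Alternatives were DESeq2 1.42.0 (Wald test, and its size factors), scaling by library size, no filter, at least 10 counts in every library, a replicate block, each library left out, and a fold criterion. The longest coding transcript as length and the loose CTCF pattern were added after seeing the data. Promoter windows are RefSeq's (GRCm38.p6). Values of 1 chain are not reported here, although it stays in the counts over all chains.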

Additional observations from a re-analysis of the deposited data

How the results depend on the processing

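*Itga6* was called with DESeq2's Wald test (adjusted p = 0.0110), DESeq2 size factors (0.00455), library size alone (0.00477), at least 10 counts in every library (0.00192) and the replicate block (0.0010), and not without the filter (0.192). Without each library in turn, where the lone library of a line is assumed to vary like the others, its adjusted p was 0.170 and 0.0139 with WT_CTCF replicate 1 or 2 left out, and 0.451 and 0.477 with MUT_CTCF replicate 1 or 2 left out. Called chains were thus 1 higher in the main test and 0 without the filter, 0 by the fold criterion (over 2-fold, with p under 0.05 before adjustment), and 0 to 1 with a library left out. The median log2 fold change of the 29 chains was 0.020 to 0.053 with a library left out, lowest without MUT_CTCF replicate 2.

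Over all tested genes, the 253 higher calls were 129 with DESeq2's Wald test, 26 without the filter, 154 by the fold criterion and 0 to 140 with a library left out. The 262 lower calls were 152 with library size alone, 3 without the filter, 58 by the fold criterion and 0 to 102 with a library left out. Both were 0 without either MUT_CTCF library (edgeR). The cause was not tested. Replicate numbers come from the labels, and whether same-numbered libraries share a batch is not given in the sources used here. Their deviations correlated at -0.0057 over all tested genes. That value does not decide it, because genes of low count weigh as much as the others. The replicate block gave 326 higher and 372 lower calls and a median of 0.039, and changed no call among the chains.

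The sign of *Itga8* turned with library size alone (0.0046). With a library left out, log2 fold changes spanned 0 for *Itga2b* (-0.22 to 0.61), *Itga3* (-0.016 to 0.028), *Itga5* (-0.026 to 0.083), *Itga8* (-0.75 to 0.74), *Itga9* (-0.13 to 0.17), *Itgae* (-0.14 to 0.38), *Itgal* (-0.10 to 0.21), *Itgam* (-0.43 to 0.011), *Itgav* (-0.055 to 0.089), *Itgb2* (-0.20 to 0.66), *Lama1* (-0.014 to 0.040), *Lama4* (-0.15 to 0.014), *Lama5* (-0.068 to 0.020), *Lamb2* (-0.0069 to 0.083) and *Lamb3* (-0.14 to 0.16). With 2 libraries per line, p-values measure the spread between these libraries only.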
